A study of Mus musculus with 39 samples.

Results

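The 8 genes described here encode the subunits by which the BAF (mammalian SWI/SNF) chromatin remodelling complex of neural progenitors differs from that of neurons. On the progenitor side these are Actl6a, Phf10, Dpf2 and Ss18, and on the neuronal side Actl6b, Dpf1, Dpf3 and Ss18l1. The genes were chosen by name and side and are 8 of the 53379 genes in the count tables. BAF complexes are built around an ATPase, SMARCA4 or SMARCA2, and use the energy of ATP to move or evict nucleosomes. When a neural progenitor leaves the cell cycle, the actin-related subunit ACTL6A is replaced by ACTL6B, the PHD finger subunits PHF10 and DPF2 by DPF1 and DPF3, and SS18 by SS18L1, also called CREST, and the neuronal complex is known for its role in dendrite growth. The repressor REST, which is lost as neurons form, holds down miR-9 and miR-124, and both of these microRNAs are known to target the Actl6a messenger RNA.

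RNA was sequenced from pools of 200 to 400 fluorescent cells sorted from the dissected neocortex of embryos at embryonic day (E) 13 or E16. All embryos carried the MADM-7 GT and TG cassettes and Emx1-Cre, with CD1 as the labelled strain on a mixed C57BL/6J, CD1 background, so the yellow control cells come from animals of the same genotype as the others. In mosaic analysis with double markers (MADM), green and red cells hold 2 copies of chromosome 7 from the same parent, in opposite parental directions, while yellow cells hold a copy from each parent. The sample labels name colours and no parent, and the parental direction that the study gives elsewhere was not used here, so colours are compared as colours, and green and red together are called singly coloured. Emx1-Cre acts in the progenitors of the dorsal forebrain, whose labelled descendants include neurons, and the sort was by colour alone. Each library is therefore a mixture of progenitors and neurons, in which fewer cells of a type and less RNA per cell cannot be told apart. Single embryos were the replicates, the libraries of 1 age with the same replicate number were taken to be from 1 embryo, and the labels do not give the sex.

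Of 39 libraries, 36 had at least 40% uniquely aligned reads and were used: 5 of each colour at E13 and 7 of each colour at E16. They held between 472924 and 5205788 reads in genes, and levels are given as counts per 1000000 of these reads (CPM). A floor of 3 reads, below which a level is not told apart from 0, came to 0.576 to 6.34 CPM, and it covers counting error only, because amplified reads that carry no molecular identifier do not each stand for a molecule. Several libraries stood apart. E13 yellow replicate 2 and E16 yellow replicate 7 had 40.9% and 44.1% of their uniquely aligned reads outside genes, and E16 red replicate 5 had 18.5% in more than 1 gene. These 3 libraries, E16 red replicate 6, E13 green replicate 4 and E16 green replicate 7 showed 7858 to 10194 genes with a read, against 11049 to 13768 in the others. The study left out 4 of these 6, and results are given without them where that matters.

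The members lie on different chromosomes (GRCm38): Actl6a at chr3:32706298-32726973 on the plus strand, Phf10 at chr17:14945009-14961273 on the minus strand, Dpf2 at chr19:5896516-5913010 on the minus strand, Actl6b at chr5:137553517-137569582 on the plus strand, Dpf1 at chr7:29303951-29318243 on the plus strand, Dpf3 at chr12:83213745-83487716 on the minus strand and Ss18l1 at chr2:180042509-180070201 on the plus strand. Dpf1 is the member on chromosome 7, the chromosome made uniparental in green and red cells. Counting did not use strand, so reads from an overlapping gene on the other strand cannot be told apart. Such overlaps covered 11.6% of the exon bases of Actl6a (with Mrpl47), 9.56% of those of Phf10 (with 1600012H06Rik), 1.79% of those of Dpf1 and 1.22% of those of Dpf2.

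The sequences shown are of the actin-related pair and of Ss18l1, since Actl6b and Ss18l1 had the lowest adjusted p of the members between ages and Actl6a is the partner of the first. Each is the stretch from 250 to 51 bases before the RefSeq start of the gene (GRCm38.p6, plus strand), with capitals marking any of 3 motifs on either strand, none of which overlap. The motifs searched were the GC box, with the letters GGGCGG, the CCAAT box, which is named for its letters, and the core of the cyclic AMP response element, with the letters TGACG. The windows are chr3:32708296-32708495, which lies inside the span of a longer Actl6a transcript, chr5:137553296-137553495 and chr2:180042233-180042432.
Actl6a: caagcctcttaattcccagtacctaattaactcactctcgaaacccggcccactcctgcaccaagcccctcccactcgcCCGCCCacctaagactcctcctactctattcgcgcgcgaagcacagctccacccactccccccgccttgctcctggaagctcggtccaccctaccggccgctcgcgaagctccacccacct
Actl6b: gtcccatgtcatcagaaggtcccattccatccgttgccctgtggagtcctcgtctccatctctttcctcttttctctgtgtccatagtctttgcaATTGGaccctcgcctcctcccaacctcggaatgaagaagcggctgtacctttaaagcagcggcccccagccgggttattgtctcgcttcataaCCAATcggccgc
Ss18l1: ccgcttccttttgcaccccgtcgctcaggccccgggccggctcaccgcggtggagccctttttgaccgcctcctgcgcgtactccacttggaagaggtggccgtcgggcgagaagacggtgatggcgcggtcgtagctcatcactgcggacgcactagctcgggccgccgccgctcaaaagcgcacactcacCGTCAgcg
Of the 3 windows, that of Actl6a held 1 GC box, that of Actl6b 2 CCAAT boxes and that of Ss18l1 1 core of the response element. Among all 32851 windows of the same length, 24.6% held a GC box, 28.4% held a CCAAT box and 12.7% held the core of the response element. Boxes of the second kind also stood in the windows of Dpf1 (2), Dpf3 (2) and Dpf2 (1), GC boxes in those of Phf10 (3), Dpf1 (2) and Dpf3 (1), and the core in those of Phf10 (1) and Dpf2 (1). The windows of Actl6a, Actl6b and Ss18l1 were 62.5%, 54.5% and 68% G or C, against a median of 51.5% over all windows. Of the 8 members, 7 had a RefSeq window.

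The microRNA that is shown is miR-9-3p, the strand of the miR-9 hairpin known to target Actl6a, because its seed has a match in that gene. The same mature sequence comes from 3 loci, Mir9-1 on chromosome 3, Mir9-3 on chromosome 7 and Mir9-2 on chromosome 13. Its seed, bases 2 to 8, is in capitals, and so is the matching stretch in the 3′ untranslated region of Actl6a (chr3:32726628-32726657, plus strand, GRCm38).
mmu-miR-9-3p: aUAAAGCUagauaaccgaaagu
Actl6a site: ctcaacgtctgtAGCTTTAgtacactcagg
The match begins at base 38 of the 371 bases of this untranslated region. It was the 1 match to this seed among the 8 members, whose longest annotated 3′ regions ran from 90 bases in Phf10 to 3087 bases in Ss18. Over 20785 genes, 11.3% had at least 1 match in a region of median length 967 bases. The libraries hold polyadenylated RNA and did not measure microRNAs themselves.

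Between the members, levels were compared as CPM per kilobase of exon. Ss18l1 (a neuronal subunit that acts as a calcium-responsive transactivator) and Actl6a led, with medians over the 36 libraries of 22.2 and 17.6 CPM per kb. Their middle ranges over libraries overlapped, from 16.3 to 33.01 for Ss18l1 and from 8.78 to 31.0 for Actl6a, so the order of these neighbours was not beyond their spread. Phf10 followed at 6.00, then Ss18 at 1.77, Dpf2 at 1.45 and Actl6b at 1.27. Dpf1 and Dpf3 were lowest, at 0.537 and 0.265 CPM per kb. The middle ranges of Actl6a (from 8.78) and Phf10 (to 8.13) did not meet, whereas those of every later pair of neighbours overlapped. Dpf3 was above the floor of 3 reads in 19 of 36 libraries, Dpf1 in 24 and Actl6b in 26, while Ss18l1 was above it in 35. The neuronal side thus held both the highest and the 3 lowest medians. In the plot of CPM by library, the libraries that the study left out supply several of the extreme values.

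**Figure D1:**
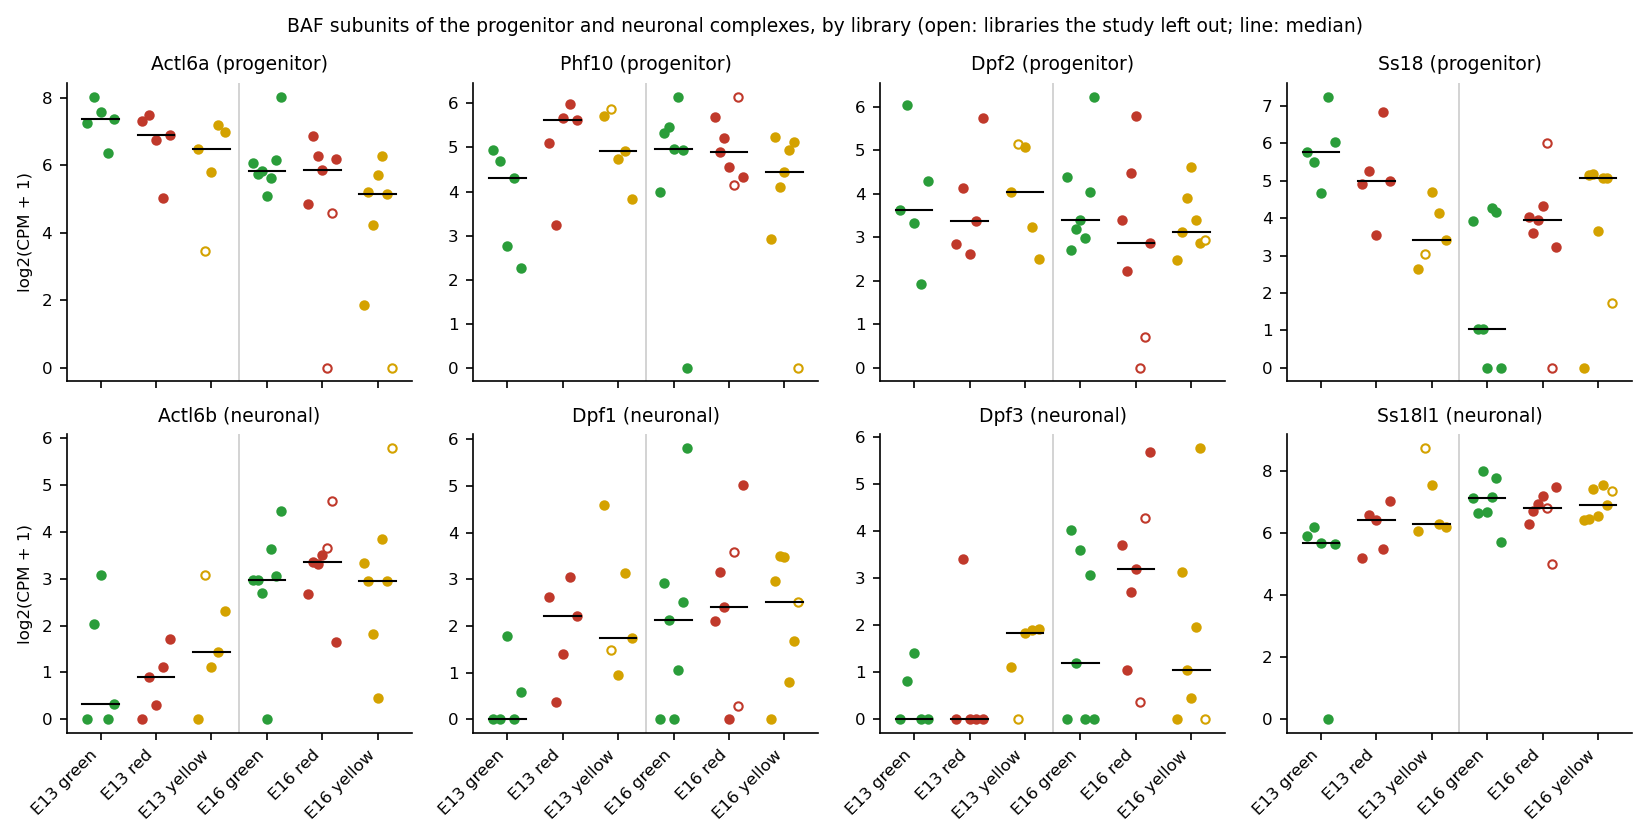
Each panel plots log2(CPM + 1) of 1 gene, with 1 point per library in the 6 groups of age and colour, open points for libraries that the study left out and a line at the group median. Actl6b sits low at E13 and higher at E16, Ss18 has its highest median in E13 green (53.4 CPM), and E13 green holds 3 libraries at 0 for Dpf1.

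The comparison of E16 with E13 asked whether the neuronal subunits stood higher, and the progenitor subunits lower, at the later stage. In singly coloured cells, with green and red counts summed per embryo, the log2 fold changes of the neuronal subunits ran from 1.09 for Ss18l1 to 3.38 for Actl6b, where the median over all genes tested was 0.06. Actl6b and Dpf3 had mean counts below 10 at E13 and passed the filter on low counts through their E16 embryos, so the sign of their values was bound to the filter and no count or median over the neuronal subunits is drawn on. The 4 progenitor subunits had a median of −0.20, with 2 above 0 and 2 below. None of the 8 passed an adjusted p of 0.05 in edgeR's quasi-likelihood test, where 3.24% of 12797 genes did (414 genes, 214 higher and 200 lower at E16). At an unadjusted p under 0.05 there were 3 members, Actl6b, Ss18l1 and Ss18, and 2524 of all genes, or 19.7%. DESeq2 called 2 members, Actl6b and Ss18l1, and 1277 genes. For Actl6b the p-values of both tests carry the limit set by the filter.

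Actl6b, the neuronal actin-related subunit, did not overlap between the ages in singly coloured cells. The share of all genes without such overlap was not counted. Because Actl6b passed the filter on low counts through E16, its values are given as description. Its summed level in the 5 embryos at E13 was 0, 0.678, 1.32, 1.82 and 2.20 CPM, from 0 to 19 reads. In the 7 embryos at E16 it was 5.94, 7.18, 8.02, 8.64, 11.5, 16.1 and 18.9 CPM, from 24 to 148 reads. The values of 11.5, 16.1 and 18.9 CPM were those of embryos 5, 6 and 7, each of which holds a green or red library that stands apart. Every E16 embryo lay above every E13 embryo, and the means were 1.20 ± 0.881 CPM (SD, n = 5) and 10.9 ± 4.88 CPM (SD, n = 7). This gave a log2 ratio of 3.38 (SE 1.06, edgeR adjusted p = 0.0886), and DESeq2 gave 3.39 with an adjusted p of 0.0013. Leaving out 1 embryo at a time gave 3.07 to 3.69, with edgeR adjusted p from 0.110 to 0.152. Embryos with the replicate numbers 1 to 3, which the study collected on other days than the rest according to its sample sheet, gave 2.54 (edgeR adjusted p = 0.506). The higher numbers gave 3.97 (edgeR adjusted p = 0.382). Green libraries alone gave 2.10 and red libraries alone 3.67, and with the libraries that the study used the value was 3.21 (edgeR adjusted p = 0.168).

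In yellow cells Actl6b ran from 0 to 7.49 CPM at E13 (median 1.69, n = 5) and from 0.364 to 54.5 CPM at E16 (median 6.78, n = 7). The 2 ages overlapped, and 3 of the 7 E16 libraries lay above the highest E13 library. For yellow cells the fit gave 2.20 on the log2 scale (SE 1.39, edgeR adjusted p = 0.797), and both extremes came from libraries that stand apart, E13 yellow replicate 2 and E16 yellow replicate 7. Across all 8 members in yellow cells, edgeR called 0 members and 0.149% of 11378 genes (17 genes), with 0 members and 989 genes at an unadjusted p under 0.05, and DESeq2 called 0 members and 195 genes.

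Actl6a, the partner of Actl6b in progenitors, was above the floor of 3 reads in 34 of 36 libraries. In singly coloured cells the E13 embryos had 52.6, 125, 140, 156 and 226 CPM. The E16 embryos had 25.4, 43.1, 46.2, 53.1, 66.5, 83.5 and 243 CPM, so that 3 of 7 lay below every E13 embryo while embryo 7 lay above all others of either age. The difference of −0.58 on the log2 scale (SE 0.52, edgeR adjusted p = 0.603) became −1.25 (edgeR adjusted p = 0.0789) without that embryo. Replicate numbers 1 to 3 gave −1.25 (edgeR adjusted p = 0.127), while the higher numbers, embryo 7 included, gave 0.18 (edgeR adjusted p = 0.969), and the libraries that the study used gave −0.29 (edgeR adjusted p = 0.825). In yellow cells Actl6a had a median of 88.7 CPM at E13 (10.1 to 146) and 34.4 CPM at E16 (0 to 77.2), a log2 ratio of −1.42 (SE 0.97, edgeR adjusted p = 0.843).

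Set against Actl6a per kilobase, Actl6b made up a median of 0.139% of the actin-related pair in green cells, 0.448% in red cells and 1.88% in yellow cells at E13. At E16 the medians were 8.56%, 14.1% and 14.7%. The highest values at E13 were 3.44% in green and 3.29% in red cells, and 40.4% in E13 yellow replicate 2. The lowest at E16 were 0%, 2.61% and 0.637% in green, red and yellow cells, so the ages overlapped. The 2 libraries at 100%, E16 red replicate 5 and E16 yellow replicate 7, had no Actl6a read and are among those that the study left out. The plot of family shares shows these values by library.

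**Figure D2:**
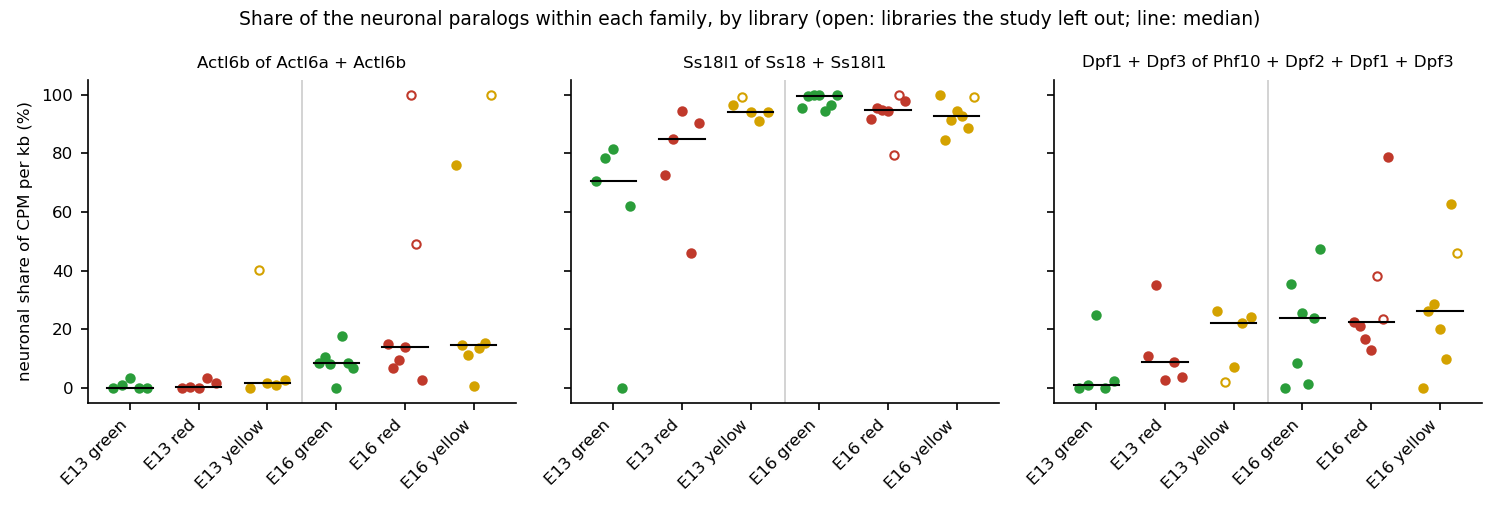
Each panel plots the share (%) of the neuronal paralogs in the CPM per kilobase of their family, with 1 point per library, open points for libraries that the study left out and a line at the group median. The Actl6b share has medians of 0.139% to 1.88% in the E13 groups and of 8.56% to 14.7% at E16. The ages overlap, with E13 yellow replicate 2 at 40.4% and an E16 green library at 0%. Ss18l1 already leads its pair in most E13 libraries.

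Ss18l1 and Ss18 form the second pair. Ss18l1 in singly coloured cells was 25.4, 43.6, 77.1, 81.6 and 91.6 CPM at E13 and 63.9, 102, 102, 121, 128, 140 and 188 CPM at E16. Of the 7 E16 embryos, 6 lay above every E13 embryo, and embryo 7 did not. Its fold change was 1.09 on the log2 scale (SE 0.36, edgeR adjusted p = 0.101), and DESeq2 gave an adjusted p of 0.023. The value was 1.08 in replicate numbers 1 to 3 (edgeR adjusted p = 0.193) and 1.16 in the higher numbers (edgeR adjusted p = 0.519), and 0.89 to 1.25 with 1 embryo left out. With the 3 colours summed per embryo it was 0.40 (edgeR adjusted p = 0.562).

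In yellow cells the difference of Ss18l1 had the other sign. The E13 libraries ran from 66.0 to 430 CPM (median 78.2) and the E16 libraries from 85.4 to 189 CPM (median 120). On the log2 scale the difference was −0.32 (SE 0.48, edgeR adjusted p = 0.998), and it was 0.31 without E13 yellow replicate 2, the library at 430 CPM.

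Ss18, the progenitor partner (chr18:14624198-14682914, minus strand), was 13.8, 37.4, 41.2, 46.8 and 128 CPM at E13 in singly coloured cells. At E16 it was 0.830, 6.05, 7.83, 8.15, 14.9, 16.002 and 40.1 CPM, and 4 of the 7 embryos lay below every E13 embryo. The log2 fold change was −1.80 (SE 0.75, edgeR adjusted p = 0.187, DESeq2 adjusted p = 0.10), −1.54 in replicate numbers 1 to 3 (edgeR adjusted p = 0.330) and −2.25 in the higher numbers (edgeR adjusted p = 0.467). Without E13 embryo 4, the highest of all, it was −1.15 (edgeR adjusted p = 0.508), and it was −3.16 in green and −0.95 in red libraries alone. In yellow cells the sign was the other way, with medians of 9.76 CPM at E13 (5.23 to 25.2) and 32.8 CPM at E16 (0 to 35.4) and a log2 ratio of 0.73 (SE 1.11, edgeR adjusted p = 0.998). Ss18l1 made up a median of 70.7% of the pair per kilobase in E13 green, 84.7% in E13 red and 94.2% in E13 yellow cells. At E16 the medians were 99.5%, 94.8% and 92.6%.

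The PHD finger subunits showed no separation by age. Phf10 in singly coloured cells was 18.3 to 43.9 CPM at E13 and 1.87 to 49.9 CPM at E16, with a log2 ratio of 0.18 (SE 0.59, edgeR adjusted p = 0.918). Dpf2 was 6.00 to 45.8 CPM at E13 and 3.60 to 67.4 CPM at E16, with a log2 ratio of 0.38 (SE 0.85, edgeR adjusted p = 0.867). Their neuronal partners were near the limit of detection. Dpf1 had 0.116 to 4.24 CPM at E13 and 0 to 53.1 CPM at E16 (log2 fold change 2.41, SE 1.36, edgeR adjusted p = 0.352), and without E16 embryo 7, the library pair at 53.1 CPM, the value was 0.76 (edgeR adjusted p = 0.815). Dpf3 was at 0 in 3 of the 5 E13 embryos, where the highest had 4.28 CPM, and ran from 0.139 to 13.04 CPM at E16, where 5 of 7 lay above 4.28 CPM. Its log2 fold change was 2.99 (SE 1.62, edgeR adjusted p = 0.333), a value that depends on the prior count because so many libraries are at 0. Without E13 embryo 2, the one at 4.28 CPM, it was 6.06 (edgeR adjusted p = 0.0989), and it was 2.20 in replicate numbers 1 to 3 (edgeR adjusted p = 0.616) and 8.50 in the higher numbers (edgeR adjusted p = 0.357). In yellow cells the log2 fold changes were −0.75 for Phf10, −0.86 for Dpf2, −0.60 for Dpf1 and 2.33 for Dpf3, with SE from 0.89 to 1.81 and edgeR adjusted p from 0.895 to 0.999. Dpf3 had a mean count below 10 in yellow cells at E13 and passed the filter through E16, so its sign was bound to the filter there too. Most of its E16 reads came from yellow replicate 6, with 222. Dpf1 and Dpf3 together made up a median of 1.19% of the family per kilobase in E13 green cells, 8.82% in E13 red and 22.3% in E13 yellow cells, and 22.6% to 26.3% in the 3 groups at E16.

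**Figure D3:**
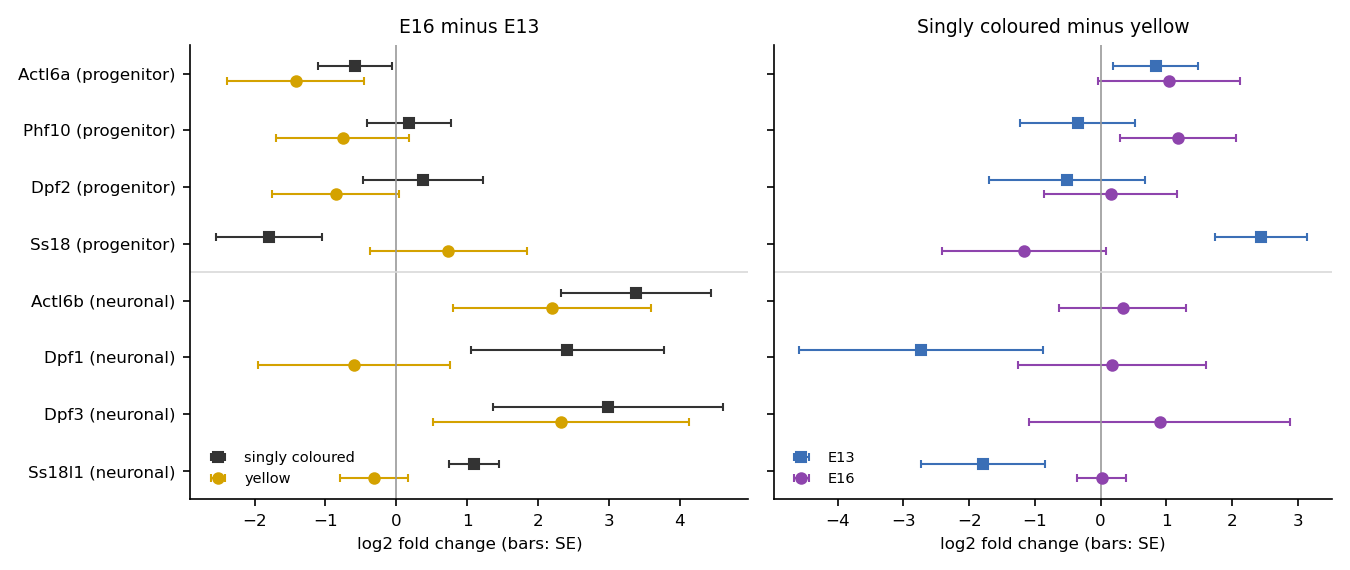
Points are log2 fold changes from edgeR and bars their SE, on the left for E16 minus E13 in singly coloured (squares) and yellow cells (circles) and on the right for singly coloured minus yellow cells at E13 (squares) and E16 (circles). On the left Actl6b (3.38) lies farthest above 0 in singly coloured cells, where it and Dpf3 passed the filter on low counts through E16, and on the right Ss18 at E13 (2.44) lies farthest above 0. Dpf3 in yellow cells also passed the filter through E16. Actl6b and Dpf3 were not tested for the E13 colours, where Dpf1 passed the filter through yellow cells.

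Markers of cell types differed between the same groups. In singly coloured cells, edgeR called 9 of 10 cycling cell markers and 6 of 9 radial glia markers lower at E16, and 8 of 12 projection neuron markers higher. Going the other way, 2 radial glia markers had values above 0 and 2 projection neuron markers had values below 0. The summed level of the cycling markers ran from 1665 to 3773 CPM in green and red cells at E13 and from 55.2 to 823 CPM at E16, without overlap. In yellow cells it was 505 to 1558 CPM at E13 and 153 to 499 CPM at E16. The projection neuron markers summed to 4396 to 8034 CPM in green and red cells at E13, to 10509 to 15053 CPM at E16, and to 11553 to 14197 CPM in E13 yellow cells. Of the radial glia markers, Hopx was at 0 in 34 of 36 libraries and Hes5 in 26, while Pax6, Vim and Fabp7 were above 0 in all. The part of these shifts in the levels of the BAF subunits was not tested. Within E13, where the 15 libraries share 6 embryos, the Spearman correlation with the summed cycling markers was 0.86 for Ss18 (Pearson 0.81 on log2 values, 0.77 without the 2 libraries farthest from the median), −0.51 for Ss18l1, 0.275 for Actl6a and −0.18 for Actl6b. It was below 0 for the other members of both sides, at −0.35 for Phf10, −0.09 for Dpf2, −0.35 for Dpf1 and −0.29 for Dpf3. Within the 21 libraries of E16 it was 0.31 for Ss18, 0.28 for Ss18l1, 0.13 for Actl6a and −0.24 for Actl6b. There it was 0.09 for Phf10, 0.13 for Dpf2, −0.24 for Dpf1 and 0.14 for Dpf3. These are descriptions across libraries that differ in depth.

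**Figure D4:**
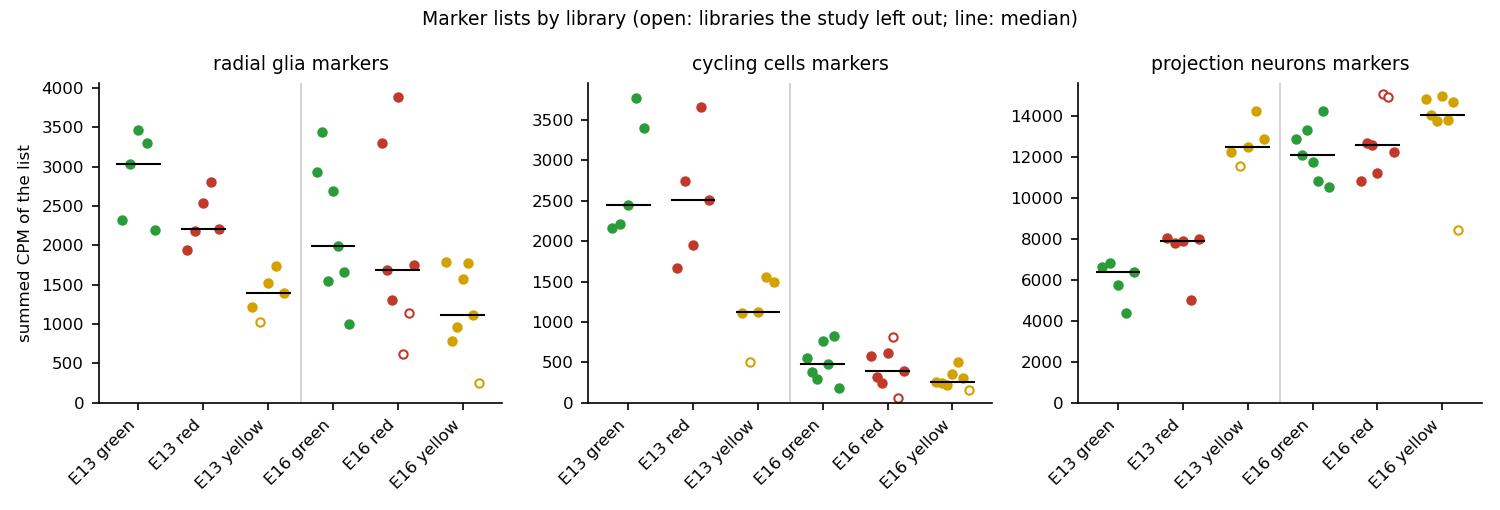
Each panel plots the summed CPM of a marker list, with 1 point per library, open points for libraries that the study left out and a line at the group median. Cycling markers lie at 1665 to 3773 CPM in E13 green and red and at 55.2 to 823 CPM in E16 green and red. E13 yellow (505 to 1558 CPM) lies below the first of these ranges and overlaps the second. Projection neuron markers are lower in E13 green and red (4396 to 8034 CPM) than in E13 yellow (11553 to 14197 CPM), which lies within the range of the E16 libraries.

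Markers of other cells were low in most libraries. Microglia markers summed to at most 74.2 CPM, with P2ry12 at 0 in all 36 libraries, endothelial markers to at most 129 CPM and interneuron markers to at most 141 CPM. Erythroid markers ran from 0.228 to 19355 CPM, with medians of 4.93, 4084 and 1334 CPM in E13 green, red and yellow cells and of 2.46 to 10.2 CPM at E16. Meningeal markers reached 684 CPM and Cajal-Retzius markers 609 CPM, both in E13 red cells, and markers of the oligodendrocyte lineage 441 CPM in an E16 red library. Between ages in singly coloured cells, edgeR called 2 of 3 tested meningeal markers (Col1a2 and Col3a1), 1 of 2 tested oligodendrocyte lineage markers (Pdgfra) and 1 of 5 tested intermediate progenitor markers lower at E16, and their part in the levels above was not tested. Col1a2, Col3a1 and Pdgfra had a median of 0 CPM in every E16 group. They were tested mainly on their reads at E13, so the filter on low counts favoured this sign. Intermediate progenitor markers summed to 455 to 2086 CPM at E13 and 218 to 807 CPM at E16.

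The second comparison set singly coloured against yellow cells of the same embryo. At E13 Ss18 had the highest log2 fold change of the members tested, and it ranked 99 by edgeR p among the 11786 genes. Green and red were both above yellow in 4 of 4 embryos with all 3 colours. The share of all genes with this pattern was not counted. Green cells had 53.4, 44.0, 151 and 64.8 CPM in embryos 1, 2, 4 and 6, red cells 29.1, 37.0, 112 and 30.6 CPM, and yellow cells 5.23, 7.23, 25.2 and 9.76 CPM. The log2 fold change was 2.44 (SE 0.70), but with an edgeR adjusted p of 0.472 it did not pass. DESeq2 gave 2.42 with an adjusted p of 1.3e-05. In the same fit edgeR called 0 members and 0.00848% of 11786 genes (1 gene), with 1 member and 808 genes at an unadjusted p under 0.05, while DESeq2 called 1 member and 558 genes. Over 16 alternatives the Ss18 value stayed between 2.03 and 2.81, and was 2.64 in replicate numbers 1 to 3 (edgeR adjusted p = 0.907) and 2.23 in the higher numbers (edgeR adjusted p = 0.834).

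**Figure D5:**
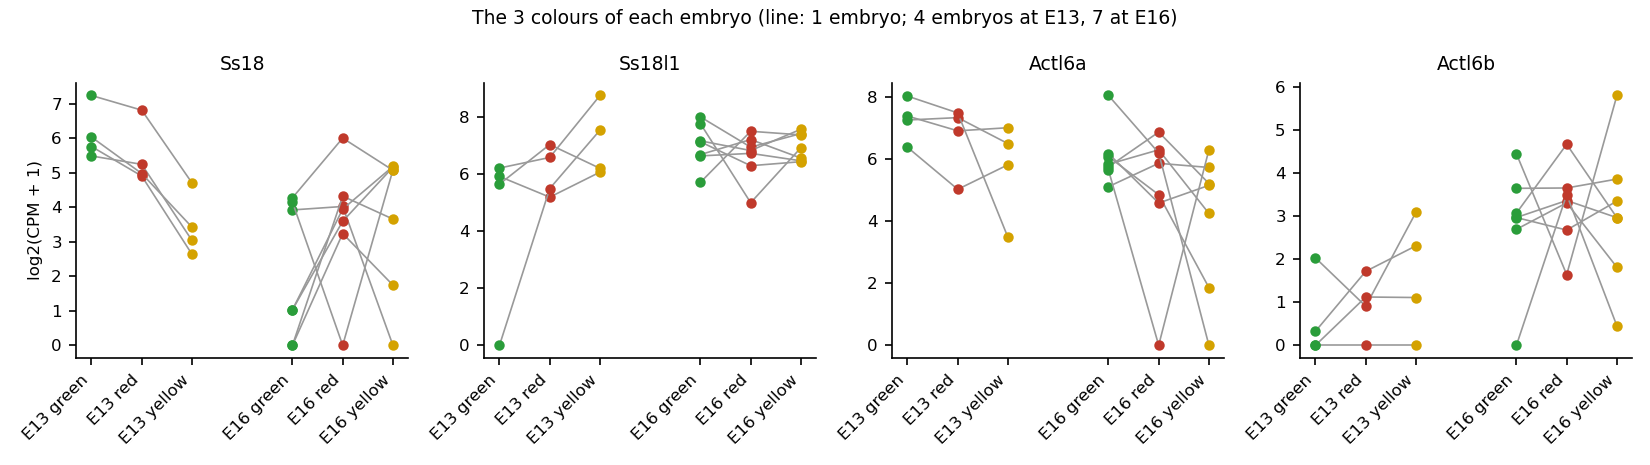
Lines join the green, red and yellow libraries of 1 embryo, on a log2(CPM + 1) scale, for the embryos with all 3 colours (4 at E13, 7 at E16). All 4 lines of Ss18 at E13 fall from green to yellow, while at E16 the lines of all 4 genes cross.

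Ss18l1 had the opposite sign at E13. Yellow cells of embryos 1, 2, 4 and 6 had 66.0, 430, 185 and 72.5 CPM, green cells 59.3, 73.0, 0 and 49.1 CPM, and red cells 35.5, 94.7, 44.0 and 130 CPM. Green was below yellow in 4 of 4 embryos and red in 3 of 4. The log2 fold change was −1.80 (SE 0.94, edgeR adjusted p = 0.752), and −1.03 (edgeR adjusted p = 0.925) without embryo 4, whose green library had no read of Ss18l1. Actl6a was above yellow in green cells of 4 of 4 embryos and in red cells of 2 of 4 (log2 fold change 0.84, SE 0.65, edgeR adjusted p = 0.858). It was 2.13 in replicate numbers 1 to 3, −0.03 in the higher numbers and 0.23 with the libraries that the study used. Phf10 and Dpf2 had −0.35 (SE 0.88) and −0.51 (SE 1.19), and Dpf1 −2.73 (SE 1.85), with edgeR adjusted p from 0.834 to 0.988. Green and red libraries together had a mean Dpf1 count below 10. Dpf1 passed the filter on low counts through yellow cells, so the sign of its value was bound to the filter. The Dpf1 value was −4.17 in replicate numbers 1 to 3 (edgeR adjusted p = 0.907) and −0.32 in the higher numbers (edgeR adjusted p = 1), and −4.50 for green and −0.96 for red against yellow alone. Actl6b and Dpf3 had mean counts below 10 and were not tested. Actl6b was above the floor in 4 of 5 yellow libraries and in 2 of 5 of each of the other colours, and its highest levels were 7.49 CPM in yellow, 7.39 CPM in green and 2.28 CPM in red cells. Dpf3 was above the floor in 4 of 5 yellow, 1 of 5 green and 1 of 5 red libraries. Beside these values, the cycling markers summed to 505 to 1558 CPM in yellow cells and to 1665 to 3773 CPM in green and red cells. In the same fit 10 of 10 cycling, 8 of 8 tested radial glia, 5 of 5 tested intermediate progenitor and 4 of 4 tested meningeal markers had values above 0, with 0 called by edgeR. Below 0 were 12 of 12 projection neuron markers, of which Stmn3 was called (−1.74, edgeR adjusted p = 0.0380), 4 of 4 tested Cajal-Retzius, 4 of 4 tested erythroid and 3 of 3 tested microglia markers. The microglia markers passed the filter on low counts through yellow cells, so their sign was bound to the filter too. The part of these markers in the values of the BAF subunits was not tested.

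At E16 no member differed between singly coloured and yellow cells beyond the spread of the libraries. EdgeR called 0 members and 0% of 10794 genes, with 0 members and 257 genes at an unadjusted p under 0.05, and DESeq2 called 0 members and 87 genes. Log2 fold changes of the progenitor subunits were 1.03 for Actl6a (SE 1.08), 1.17 for Phf10 (SE 0.88), 0.15 for Dpf2 (SE 1.02) and −1.17 for Ss18 (SE 1.25). Those of the neuronal subunits were 0.34 for Actl6b (SE 0.96), 0.17 for Dpf1 (SE 1.43), 0.90 for Dpf3 (SE 1.98) and 0.02 for Ss18l1 (SE 0.38). All edgeR adjusted p were 1. Ss18l1 had the narrowest error of the 8, with 51.3 to 255 CPM in green (median 139), 30.9 to 180 CPM in red (median 112) and 85.4 to 189 CPM in yellow cells (median 120). For Ss18, singly coloured cells were above yellow in 3 of 7 embryos and below in 4.

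The difference between the ages in this colour contrast was tested as an interaction over all 36 libraries. EdgeR called 0 members and 0% of 11472 genes, with 1 member (Ss18) and 475 genes at an unadjusted p under 0.05, and DESeq2 called 0 members and 219 genes. For Ss18 the colour contrast at E16 minus that at E13 was −3.60 (SE 1.65, edgeR adjusted p = 1, DESeq2 adjusted p = 0.13). For Ss18l1 it was 1.81 (SE 0.93), for Actl6b 1.77 (SE 1.67), for Actl6a 0.19 (SE 1.41), for Phf10 1.52 (SE 1.25) and for Dpf2 0.67 (SE 1.54). For Dpf1 it was 2.87 (SE 2.27) and for Dpf3 5.61 (SE 2.77), all with an edgeR adjusted p of 1. The last rests on E13 libraries that are mostly at 0, and was 0.86 without the block for embryos. Actl6b and Dpf3 had mean counts below 10 at E13 and passed the filter on low counts in this fit through E16. Their interaction values thus contain an E13 colour contrast that was too low in reads to be tested alone.

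Green and red cells were compared within embryos because Dpf1 lies on the uniparental chromosome. EdgeR called 0 members and 0% of genes at either age, with 0 members at an unadjusted p under 0.05, 261 of 11786 genes so at E13 and 251 of 10794 at E16. DESeq2 called 0 members at either age, and 223 and 74 genes. Dpf1 reads at E13 were 0, 0, 3, 0 and 2 in green cells and 20, 1, 7, 25 and 16 in red cells of embryos 1, 2, 3, 4 and 6, or at most 2.46 CPM in green and 0.291 to 7.33 CPM in red. Green was below red in 4 of 5 embryos and at or under the floor in all 5. Dpf1 passed the filter on low counts in this fit through red and yellow cells. The log2 fold change of −3.54 had an SE of 2.15 (edgeR adjusted p = 1). At E16 green ran from 0 to 55.4 CPM (median 3.38) and red from 0 to 31.7 CPM (median 4.31), and the log2 fold change was −0.93 (SE 1.70, edgeR adjusted p = 1). Among the other members, Ss18 was higher in green than in red cells in 5 of 5 embryos at E13 (log2 fold change 0.74, SE 0.64) and in 1 of 7 at E16 (−2.36, SE 1.58), and Phf10 was lower in green in 4 of 5 embryos at E13 (−1.73, SE 1.01), all with an edgeR adjusted p of 1.

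Of the 23 other BAF subunits listed, edgeR called none in any of the 7 comparisons. In singly coloured cells, E16 against E13, 16 were above 0 and 7 below, with a median of 0.13 beside 0.06 for all genes, and 6 had an unadjusted p under 0.05. The largest positive values were those of Bicral (2.66, SE 1.49), Bcl7c (1.23, SE 0.56) and Brd9 (1.17, SE 0.42), and the largest negative those of Bicra (−3.05, SE 1.02), Smarcd2 (−1.02, SE 1.16) and Smarcb1 (−0.82, SE 0.35), with edgeR adjusted p from 0.108 to 0.706. Of the 2 ATPases, Smarca4 had 0.01 (SE 0.36) and Smarca2 0.94 (SE 0.34, edgeR adjusted p = 0.125). For the colours at E13, 11 were above 0 and 12 below (median −0.12), and at E16 12 and 10 of 22 tested (median 0.03).

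The regulators of the exchange were listed with their partners. Rest, the repressor, had a log2 fold change of −1.85 between ages in singly coloured cells (SE 0.83, edgeR adjusted p = 0.227), and its group medians were 22.2 CPM in green, 19.8 CPM in red and 8.83 CPM in yellow cells at E13 and 0.262 to 8.27 CPM at E16. Mir124a-1hg, a host gene of miR-124, had 1.88 (SE 0.60, edgeR adjusted p = 0.0943), with medians of 20.7 to 33.7 CPM at E13 and 48.7 to 77.3 CPM at E16. Mir9-3hg, a host gene of miR-9 on chromosome 7, had −0.16 (SE 0.37, edgeR adjusted p = 0.872). Ptbp1, a splicing repressor of progenitors, had −2.26 (SE 1.25) and its neuronal paralog Ptbp2 0.43 (SE 0.27). The remaining members, the REST partners Rcor1 and Rcor2, had 0.14 (SE 0.85) and −0.21 (SE 0.76). EdgeR called 0 of these 7 in any comparison, and in this one 2 had an unadjusted p under 0.05. Of 16 ATPases of other remodellers, edgeR called 1 lower at E16 in singly coloured cells, Chd7 (−1.87, SE 0.49, edgeR adjusted p = 0.0477), a remodeller of neural progenitors, and 0 in the other 6 comparisons. The largest positive values in that list were those of Chd5 (2.12, SE 1.71), Chd8 (0.91, SE 0.66) and Atrx (0.87, SE 0.24), and the other large negative ones those of Chd4 (−2.81, SE 0.80) and Srcap (−2.67, SE 1.81). Srcap passed the filter on low counts through E13 and Chd5 through E16, so the signs of both were bound to the filter.

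The genes whose pattern over the 36 libraries was most like that of each member, among 11463 genes by Spearman correlation, were Ldha, Cpt1a and Zfp213 for Actl6a (0.78 to 0.76) and Napb and Mycbp2 for Ss18l1 (0.77 and 0.76). For Ss18 they were Gnai2, Trmt1 and Fam206a (0.74 to 0.69), and for Actl6b Ptprz1, Jakmip1 and C530008M17Rik (0.69 to 0.67). Those of Phf10 (Eps15, Rsl24d1 and Vps13d), Dpf2 (Nkap, Elp3 and Disp1), Dpf1 (Rhov, Slc8a2 and Prdm10) and Dpf3 (Bcas3os1, Lyrm2 and Tdrp) reached 0.61, 0.66, 0.62 and 0.69. The libraries share embryos and differ in depth, and no member was among the 3 nearest genes of another.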

How the data were processed

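Counts per gene were deposited by the authors for each library, as raw unnormalized counts of uniquely aligned Smart-Seq2 reads from STAR 2.5.0c (GRCm38, Gencode M16), and the unstranded column was used. The summary lines that name no gene stayed out of library sizes. Libraries with under 40% uniquely aligned reads (3 of 39) were left out. Genes were tested with edgeR 4.0.16 (R 4.3.3): TMM scaling, a mean count of at least 10, the quasi-likelihood test and Benjamini-Hochberg adjustment over all genes, with a threshold of 0.05. DESeq2 1.42.0 was an alternative. Colours were compared with the embryo (the replicate number) as a block, as the study's model has a term for the sample beside that for the group, and ages between embryos, with green and red counts summed. Deviations from group means correlated by 0.0456 (E13) and 0.0295 (E16) on average between libraries of 1 number. That a number marks 1 embryo is taken from the labels, where single individuals are the replicates, and is not stated outright. P-values of the age tests measure the spread between these embryos. Those of the colour tests and of the interaction measure the spread of single libraries within embryos, since the block takes out differences between embryos. CPM are counts per 1000000 gene counts, and levels per kb were divided by exon length from Gencode M21. Promoters and microRNAs came from RefSeq (GRCm38.p6). The members and gene lists were chosen with earlier results of these data known. Named genes were all 8 members, up to 3 of the largest positive and 3 of the largest negative fold changes of each pathway list with every gene called, the markers that define a list, and the 3 genes most alike each member, of which 1 is not reported here. Mir9-3hg, Smarca4 and Smarca2 were added after their values were seen. The scripts were tested on simulated counts. Alternatives were the scaling, the filter, the libraries kept, the block, single colours, replicate numbers and leaving out each embryo.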

Additional observations from a re-analysis of the deposited data

Results flagged for a closer look

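Each gene was examined in each group of 5 or 7 libraries for a library far from the others of its group, by Dixon's ratio at 95%. In all 15 of 48 groups were flagged, in 12 libraries. Chance flags about 1 in 20 groups of normally distributed values, but these CPM are skewed and often at 0, and the rate for such values was not measured. All values are CPM, and the cause was not tested in any case.

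Among the progenitor subunits, Actl6a was 261 in E16 green replicate 7, against 33.4 to 70.9 in the others. Dpf2 was 65.1 in E13 green replicate 2 (others 2.81 to 18.5) and 52.7 in E13 red replicate 6 (others 5.13 to 16.6). At E16, Dpf2 was 74.1 in green replicate 7 (others 5.50 to 19.8) and 53.8 in red replicate 4 (others 0 to 21.3). Ss18 was 112 in E13 red replicate 4 (others 10.7 to 37.0) and 63.5 in E16 red replicate 5 (others 0 to 19.0), a library that the study left out.

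Among the neuronal subunits, Actl6b was 24.3 in E16 red replicate 6 (others 2.11 to 11.5) and 54.5 in E16 yellow replicate 7 (others 0.364 to 13.5), both left out by the study. Dpf1 was 2.46 in E13 green replicate 3, from 3 reads (others 0 to 0.506), 55.4 in E16 green replicate 7 (others 0 to 6.54) and 31.7 in E16 red replicate 7, from 15 reads (others 0 to 10.96). Dpf3 was 9.62 in E13 red replicate 2, from 33 reads, with the others at 0. It was 50.7 in E16 red replicate 7, from 24 reads (others 0.288 to 18.4), and 53.7 in E16 yellow replicate 6, from 222 reads (others 0 to 7.75).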

How the results depend on the processing

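Of 628 member values under alternatives, 576 kept their sign and side of the threshold, 3 came to pass it (those of DESeq2 given above) and 49 had the other sign. The last fell in 16 of 40 results, with adjusted p from 0.799 to 1, and their cause was not tested. No member passed in 103 of 105 counts, and DESeq2 gave the other counts, 1 member for singly coloured against yellow cells at E13 and 2 for E16 against E13 in singly coloured cells. Depth limits the low genes: Dpf1 and Dpf3 were at or under 3 reads in many libraries, and a gene under a mean count of 10 was not tested.

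Counts of genes called moved as follows. DESeq2 called 558 and 87 genes between singly coloured and yellow cells at E13 and E16, 223 and 74 between green and red, 195 and 1277 between ages in yellow and singly coloured cells, and 219 for the difference between ages. No filter on low counts gave 20 and 2 (colours at E13 and E16), 1 (green and red at E13), 55 (ages, yellow) and 26 (difference). For singly coloured against yellow cells at E13, where 1 gene was called, DESeq2 size factors gave 2, all libraries 0, the study's libraries 9, green alone 3, red alone 0, replicate numbers 1 to 3 0 and the higher numbers 2, and embryos left out in turn 0 to 7. The replicate block for embryos was part of the colour fits, and without it this count was 9. The block changed no member's call. For ages in yellow cells (17 genes), the study's libraries gave 146, either range of replicate numbers 0, and leaving out a library 1 to 31. For ages in singly coloured cells (414 genes), all libraries gave 55, replicate numbers 1 to 3 211, the higher numbers 0, green 155, red 36, and embryos left out in turn 224 to 450, with 224 to 275 without E13 embryos 1, 2, 4 or 6 or E16 embryos 2, 3 or 4.

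The log2 fold changes with the other sign were these. Singly coloured against yellow cells at E16: Ss18l1 had −0.024 with DESeq2 size factors, −0.026 with DESeq2, −0.0036 without the replicate block, −0.11 with red alone, −0.13 in the higher replicate numbers and −0.049 to 0.086 with each embryo left out. Dpf1 had −0.56 with the study's libraries, −0.30 with green alone, −0.23 in the higher numbers and −0.46 to 1.22 with each embryo left out. Dpf2 had −0.43 with red alone, −0.29 in the higher numbers and −0.10 to 0.57 with each embryo left out. Actl6b had −0.34 without the block, −0.25 with green alone and −0.048 to 0.78 with each embryo left out. Dpf3 had −0.20 without the block, −0.49 with green alone and −0.86 in the higher numbers. Ss18 had 0.013 with red alone, and Actl6a −0.012 in the higher numbers. At E13, Phf10 had 0.51 with red alone and 0.26 in the higher numbers, Actl6a −0.027 in the higher numbers, and Dpf2 −1.16 to 0.37 with each embryo left out (0.37 without embryo 4). For green against red at E16, Dpf1 had 0.24 without the block. Between ages in yellow cells, Ss18l1 had 0.30 with the study's libraries, 0.26 in the higher numbers and −0.51 to 0.31 with each library left out (0.31 without E13 replicate 2), and Dpf1 0.26 in the higher numbers and −0.91 to 0.65 (0.65 without E13 replicate 1). Between ages in singly coloured cells, Dpf2 had −0.24 with all libraries, −0.69 in numbers 1 to 3, −0.035 with green, −0.30 with red, −0.25 with the colours summed and −0.28 to 0.89 with each embryo left out (−0.28 without E16 embryo 7). Phf10 had −0.14 with the study's libraries, −0.087 in the higher numbers, −0.055 with red and −0.034 with the colours summed, and Actl6a 0.18 in the higher numbers.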
